A study of Arabidopsis thaliana with 9 samples.

Results

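Of 37361 loci counted in RNA from Arabidopsis thaliana seedlings, 134 have an identifier that starts with ATCG, the prefix of genes carried by the chloroplast genome. They were chosen by that prefix alone, and no measured value entered the choice. The libraries came from 14-day-old seedlings of 3 genotypes, thp1-5, sac3bc and the wild type Col, with 3 libraries each and no treatment. All were grown on 1/2 MS medium with 1% sucrose at 22 °C in cycles of 16 h light and 8 h dark. The mutants are named for THP1 and for SAC3B with SAC3C. Their products belong to TREX-2, which links the making of nuclear mRNA to its export through the nuclear pore, and all 3 are nuclear genes. The labels give the genotypes by name only, so the lesions, their generation and any further background are not stated here. They do not say whether replicates were separate cultures, so p-values measure the spread between these libraries, which may be technical.

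The chloroplast genome encodes part of the photosynthetic machinery (subunits of photosystems I and II, the cytochrome b6f complex, the ATP synthase, the NDH complex and the large subunit of Rubisco) together with much of the plastid's own gene expression apparatus: RNA polymerase subunits, ribosomal proteins, rRNAs and tRNAs. Most of these genes stand in clusters and are transcribed as long joint transcripts, by a bacterial-type polymerase whose core is plastid-encoded and by phage-type polymerases made from nuclear genes. A poly(A) tail has another role here than on a nuclear mRNA: in plant chloroplasts, A-rich tails are added to RNA ends and fragments and mark them for degradation. The RNA was selected for poly(A), so the values below are levels of chloroplast RNA that passed this selection, not of all chloroplast RNA.

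The deposited tables hold identifiers and lengths but no chloroplast gene names. A locus was named only where its length equals that of exactly 1 gene name in the RefSeq chloroplast annotation (TAIR10.1), which named 78 of the 134 loci. Another 44 share a length with several names and are called by identifier with the candidates, and 12 have a length that no gene in RefSeq has. RefSeq has 6 notes that cite an ATCG locus. The note on ATCG00430, named ndhK by length, reads photosystem II reaction center protein G. The others give the same gene as the length match. Copies in the inverted repeat are nearly identical (16 named loci stand in pairs of equal length), and the way reads were shared out between copies is not stated in the labels, nor is the strand setting, so a locus cannot be told apart from RNA of its opposite strand. Reads were 150 nt long, and 56 of the loci are shorter than that.

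Because the selection acts on runs of A, the longest such run of each gene is shown for the 4 named genes with the highest levels per length, for ndhC, which fell most in thp1-5, and for a pair that has an equally long run and a low level. The sequences are from RefSeq TAIR10.1, read 5′ to 3′ on the strand of the gene. Capitals mark the longest run of A in the gene (introns included) and the 200 bases after it, with 8 bases on each side in lower case.
psbM: ttactatcAAAAAAAAAAAAAgatttcaa
rpl32: atacatctAAAAAAAAtaggaagc
atpE: tgacgtgtAAAAAAAAAgaatgtat
atpB: gatacgtgAAAAAAAAAAcctgggac
ndhC: acaataatAAAAAAAAAAAAAgtaaaaaa
rpoC2: gagtagagAAAAAAAAAAAAAggattgaa
accD: tttttgatAAAAAAAAAAAAAtttttgag
The genes rpl32 and accD lie on the plus strand of the chloroplast sequence, and psbM, atpE, atpB, ndhC and rpoC2 on the minus strand. Counted from the first base of the gene, the run begins at base 127 for psbM, a gene of 105 bases, and so lies after its end. In atpB it begins at base 47, within the coding sequence. The runs of psbM, ndhC, rpoC2 and accD are equally long, at 13 bases. Their levels in Col were 8471 ± 934, 217 ± 23.1, 1.77 ± 0.404 and 1.48 ± 0.523 CPM per kb (SD, n = 3; CPM, counts scaled to library size, over gene length), so the same run length went with very different levels.

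Across the 57 protein genes with a name of their own, run length and level did not move together. The median level in Col was 34.0 CPM per kb for the 5 genes whose longest run had 0 to 5 bases, 51.4 for the 22 with 6 to 7 bases, 18.9 for the 17 with 8 to 9 bases and 46.02 for the 13 with 10 to 30 bases. Spearman's rho between run length and level was −0.06 over these 57 genes, and −0.01 between the share of A in the gene and its level. These are descriptions across genes of the same 3 libraries, and genes of a cluster share transcripts.

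**Figure D1:**
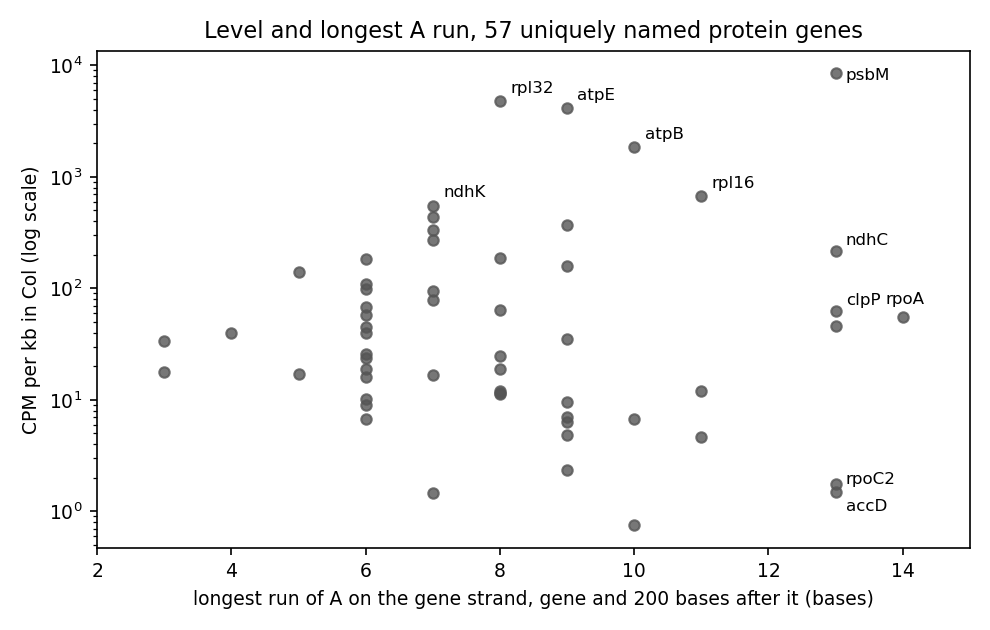
Level of 57 named chloroplast protein genes in Col (mean of 3 libraries, CPM per kb, log scale) against the longest run of A in the gene and the 200 bases after it, in bases. Genes with a run of 13 bases span the range from accD at 1.48 to psbM at 8471.

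Chloroplast loci made up less of the poly(A)-selected RNA in both mutants than in Col. They took 0.569 ± 0.0195% of the counts in thp1-5 and 0.583 ± 0.00754% in sac3bc, against 0.845 ± 0.0642% in Col (SD, n = 3 each). The range was 0.553 to 0.590% in thp1-5 and 0.577 to 0.592% in sac3bc, and 0.775 to 0.901% in Col, so neither mutant overlapped Col. Summed over the 134 loci, CPM scaled by edgeR's TMM factors averaged 5385 ± 215 in thp1-5, 5338 ± 59.0 in sac3bc and 9760 ± 704 in Col. In seedlings sequenced in bulk after poly(A) selection, 3 readings cannot be told apart. These are fewer green cells, less chloroplast RNA per cell and a smaller part of that RNA passing the selection.

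A few loci carried most of this signal. The gene atpB alone, which encodes the β subunit of the ATP synthase's catalytic head, took 24.0 ± 1.08% of the chloroplast counts in thp1-5, 22.0 ± 0.935% in sac3bc and 28.3 ± 1.67% in Col. Together with atpE (the ε subunit), rpl32 (a large ribosomal protein) and psbM (a small photosystem II subunit), it made up 63.1% in thp1-5, 59.9% in sac3bc and 62.0% in Col. At the other end, 3 loci had no count in any of the 9 libraries and 16 had between 1 and 9 counts in all. The filter on low counts left 105 loci for testing. The other 29 had at most 73 counts over all libraries, and 18 of them have the length of a tRNA.

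**Figure D2:**
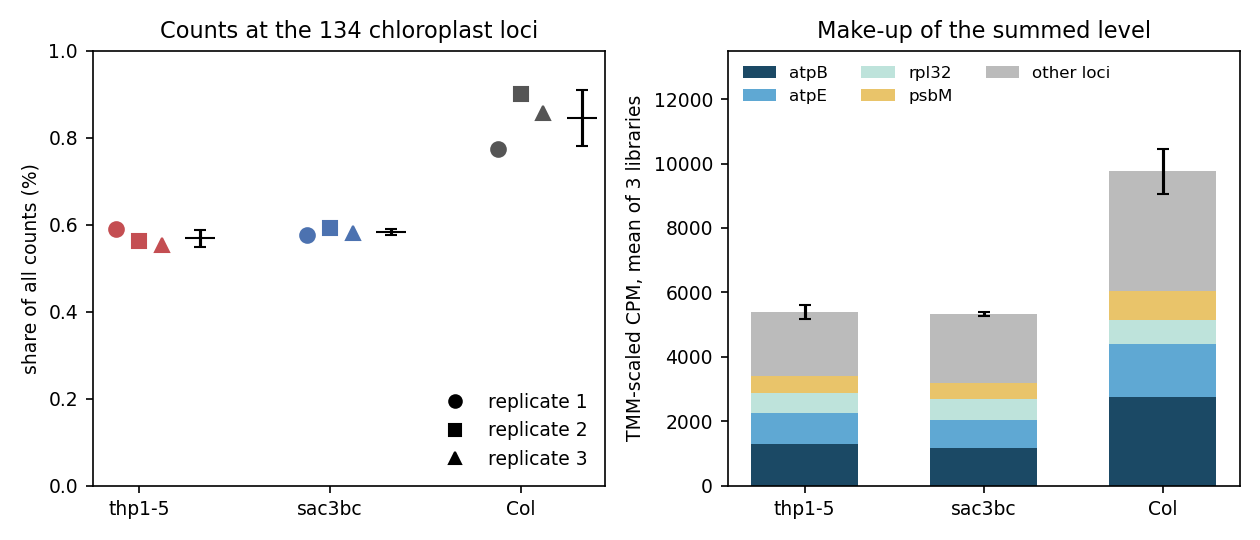
Left, share of all counts (%) at the 134 chloroplast loci in each library of thp1-5, sac3bc and Col, with mean ± SD. Right, mean TMM-scaled CPM summed over the loci, split into atpB, atpE, rpl32, psbM and the other loci, with the SD of the sum (3 libraries each). Both mutants lie near 0.6%, below all 3 Col libraries.

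The libraries held 12.8 to 17.9 M counts each. TMM factors, which are computed from the counts themselves, were 1.05 to 1.06 in thp1-5, 1.09 to 1.095 in sac3bc and 0.863 to 0.870 in Col. The scaling thus moves with the genotypes. Scaling by library totals in place of TMM raised the median log2 fold change of all 22400 tested genes to 0.30 in thp1-5 against Col and to 0.37 in sac3bc against Col, so every value below is relative to a scaling that puts that median near 0. THP1 had 11.1 to 12.7 CPM in thp1-5, 5.00 to 6.89 in sac3bc and 11.6 to 14.1 in Col, and without the position of the lesion this level checks nothing about the thp1-5 label. SAC3B and SAC3C had 23.1 to 27.7 and 7.56 to 7.96 CPM in sac3bc, against 46.7 to 47.2 and 14.3 to 15.8 CPM in Col.

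In thp1-5 against Col, at least 1 chloroplast locus fell in every functional class with more than 1 tested locus. Of the 105 tested loci, 78 were called lower (74.3%) and 0 higher, where 63.8% of all tested genes were called, 31.8% lower and 32.1% higher (edgeR quasi-likelihood test, adjusted p under 0.05). At an unadjusted p under 0.05 the loci numbered 80 lower and 0 higher, and DESeq2 called 76 lower and 0 higher. The median log2 fold change was −0.77, beside 0.01 for all genes, and 25 loci lay below −1. With library totals the split was 48 lower and 1 higher, with a median of −0.49. The groups did not overlap at 61 loci (58.1%), near the 65.4% of all tested genes.

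The same comparison for sac3bc gave a mixed picture. Here 55 of the 105 loci were lower than in Col (52.4%) and 7 higher (6.67%), where 68.0% of all tested genes were called, 33.0% lower and 35.0% higher. The median was −0.43, against 0.03 for all genes, and 18 loci lay below −1. With library totals the split became 35 lower and 20 higher, with a median of −0.09. The groups did not overlap at 56 loci (53.3%), beside 69.3% of all genes. Both mutants were set against the same Col libraries, so the 2 sets of values are not independent. Of the 78 loci lower in thp1-5, 52 were also lower in sac3bc, 20 were not called and 6 were higher.

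**Figure D3:**
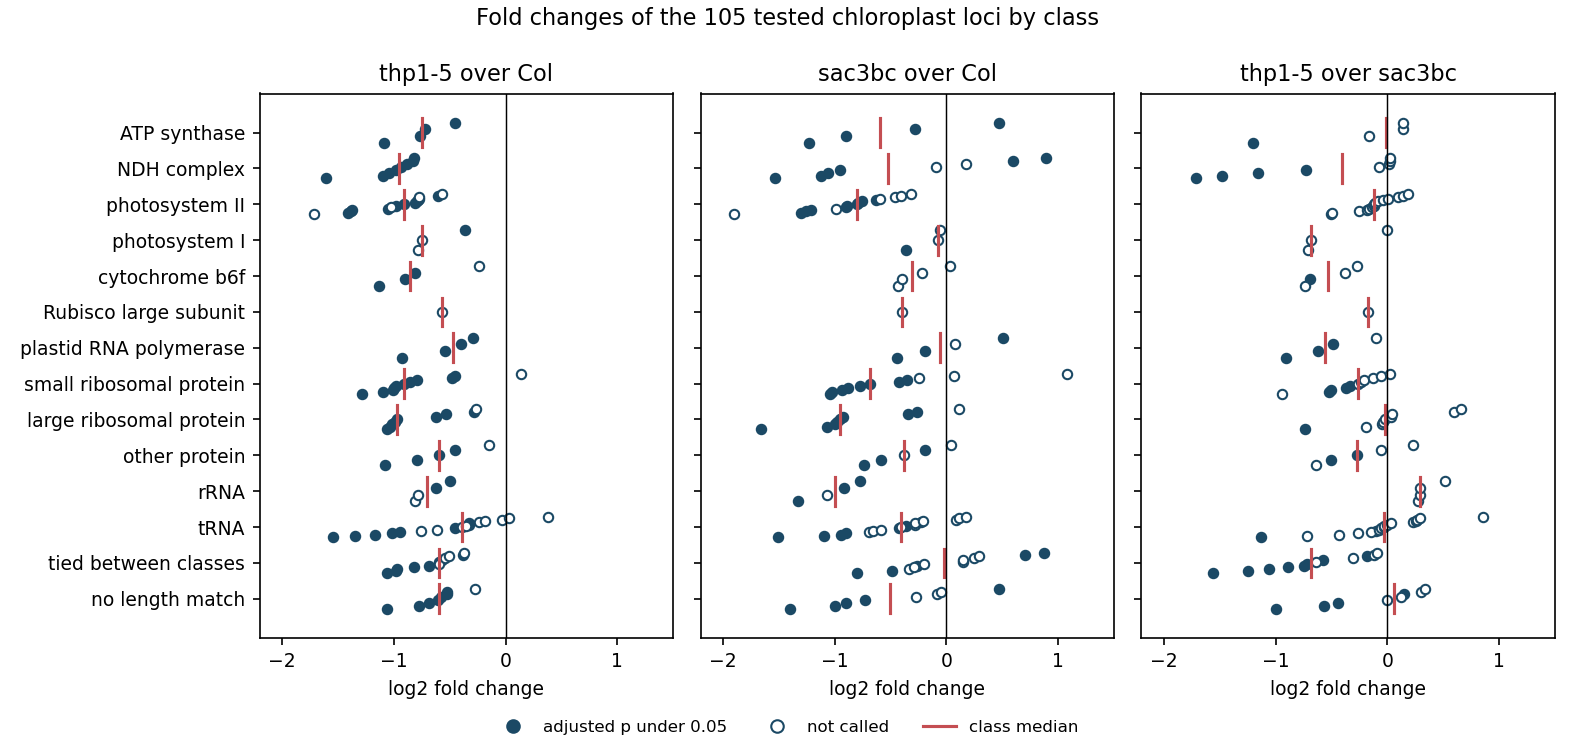
Log2 fold change of each of the 105 tested chloroplast loci by class, for thp1-5 over Col, sac3bc over Col and thp1-5 over sac3bc. Filled points have an edgeR adjusted p under 0.05, open points do not, and red bars are class medians. The left panel holds no filled point above 0, the middle one has 7 and the right one 1.

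All 4 named ATP synthase genes fell in thp1-5, and 3 fell while 1 rose in sac3bc. The most abundant, atpB, had 1419, 1228 and 1239 CPM in thp1-5 and 1222, 1154 and 1139.8 CPM in sac3bc, against 2698, 2768 and 2789 CPM in Col. All 6 mutant libraries lay well below the 3 of Col. Its log2 fold change was −1.09 ± 0.06 in thp1-5 (SE, edgeR adjusted p = 4.96e-06) and −1.23 ± 0.06 in sac3bc (adjusted p = 2.1e-06). Its cluster partner atpE, whose coding sequence overlaps that of atpB by 4 bases, averaged 968 ± 48.5 CPM in thp1-5, 880.1 ± 39.4 in sac3bc and 1644 ± 71.1 in Col (SD, n = 3). The log2 fold changes of atpE were −0.76 ± 0.05 and −0.90 ± 0.05, with adjusted p = 1.14e-05 for thp1-5 and 3.67e-06 for sac3bc.

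The genes atpI and atpA stand in another cluster. The gene atpI, for a subunit of the membrane part, had 14.1 ± 1.59 CPM in thp1-5, 15.9 ± 1.04 in sac3bc and 19.3 ± 1.43 in Col. Its log2 fold change was −0.45 ± 0.09 in thp1-5 (adjusted p = 6.73e-06) and −0.28 ± 0.09 in sac3bc (adjusted p = 0.0023), but scaled by library totals neither was called, at −0.16 in thp1-5 and 0.05 in sac3bc. The catalytic head's α subunit is encoded by atpA, which parted the mutants and is described with the loci of that kind below.

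All 8 named genes of the NDH complex, a proton pump that carries electrons around photosystem I, were lower in thp1-5. In sac3bc, 4 of them fell, 2 rose and 2 were not called. The neighbours ndhJ, ndhK and ndhC, which encode subunits of its peripheral arm and of its membrane part, all fell in both. The level of ndhC was 26.8, 25.1 and 26.1 CPM in thp1-5 and 28.2, 26.9 and 26.9 CPM in sac3bc, against 69.1, 83.4 and 83.8 CPM in Col. The 6 mutant libraries were nearly level, and even the lowest Col library was far above them. The value in thp1-5 was the lowest of all called loci, −1.61 ± 0.06 (adjusted p = 1.55e-55), and that in sac3bc was −1.53 ± 0.05 (adjusted p = 6.27e-56).

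The most abundant member of that cluster, ndhK, had 179.8, 168 and 176 CPM in thp1-5 and 174, 173 and 169 CPM in sac3bc, against 358, 374 and 388 CPM in Col. Neither mutant overlapped Col. The change of ndhK was −1.097 ± 0.03 in thp1-5 (adjusted p = 8.01e-73) and −1.12 ± 0.03 in sac3bc (adjusted p = 4.39e-75). That of ndhJ was −1.04 ± 0.04 in thp1-5 and −1.06 ± 0.04 in sac3bc (adjusted p = 5.86e-38 and 2.29e-39). The gene ndhF, a membrane subunit encoded elsewhere, also fell in both, with log2 fold changes of −0.93 ± 0.09 in thp1-5 and −0.95 ± 0.09 in sac3bc (adjusted p = 2.2e-17 and 5.86e-19).

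Of 15 tested photosystem II loci, 11 were lower in thp1-5 (median −0.91) and 9 in sac3bc (median −0.80), with none higher in either. The inner antenna gene psbC had 55.4, 53.4 and 47.6 CPM in thp1-5 and 56.5, 63.4 and 55.4 CPM in sac3bc, against 116, 149 and 140.3 CPM in Col. Each mutant library stayed below each Col library. It changed by −1.38 ± 0.12 in thp1-5 (adjusted p = 4.62e-05) and −1.22 ± 0.11 in sac3bc (adjusted p = 6.29e-05).

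The small subunit gene psbZ and the locus ATCG00270 gave values close to those of psbC. ATCG00270 is 1062 bases long, which is the length of both psbA and psbD, the genes of the reaction centre's core proteins. Its level averaged 83.5 ± 6.89 CPM in thp1-5, 90.2 ± 4.004 in sac3bc and 215 ± 18.3 in Col, with log2 fold changes of −1.37 ± 0.08 and −1.25 ± 0.08 (adjusted p = 4.21e-06 in thp1-5 and 4.95e-06 in sac3bc). In RefSeq, the coding sequences of psbD and psbC overlap by 53 bases. The level of psbZ was 7.10 ± 1.09 CPM in thp1-5, 7.60 ± 0.408 in sac3bc and 18.6 ± 2.23 in Col, and its log2 fold change was −1.41 in thp1-5 and −1.298 in sac3bc (adjusted p = 6.38e-24 and 3.08e-23).

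The locus with the highest level per length was psbM, at 4925 ± 226 CPM per kb in thp1-5, 4883 ± 373 in sac3bc and 8471 ± 934 in Col. Its CPM was 522, 491 and 538 in thp1-5 and 476, 508 and 554 in sac3bc, against 778, 963 and 927 in Col. Col lay above both mutants in every library. The fold changes were −0.78 ± 0.10 and −0.80 ± 0.10 (adjusted p = 0.000391 in thp1-5 and 0.000313 in sac3bc).

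Of the 3 named photosystem I loci, 1 was called. This gene, psaJ, which encodes a small subunit, was lower in each mutant, with 35.2 ± 1.74 CPM in thp1-5, 35.3 ± 1.09 in sac3bc and 45.5 ± 1.22 in Col. The change was −0.36 ± 0.06 in both (adjusted p = 1.73e-08 in thp1-5 and 5.51e-09 in sac3bc). Scaled by library totals it was −0.08 in thp1-5 and −0.03 in sac3bc, no longer called in either. The reaction centre genes psaA and psaB varied more between libraries and were not called. The class median was −0.74 in thp1-5 and −0.08 in sac3bc.

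For the cytochrome b6f complex, which links both photosystems, 3 of the 4 named genes were lower in thp1-5 and 0 in sac3bc. The one with the highest level per length, petL, was not called, with 1.56 ± 0.462 CPM in thp1-5, 1.87 ± 0.390 in sac3bc and 1.81 ± 0.546 in Col. The cytochrome f gene petA had 5.80, 6.16 and 5.56 CPM in thp1-5 and 8.93, 9.79 and 9.59 CPM in sac3bc, against 9.88, 11.3 and 11.6 CPM in Col. It fell by 0.90 on the log2 scale in thp1-5 (SE 0.13, adjusted p = 2.1e-10), while the value of −0.22 ± 0.11 in sac3bc was not called (adjusted p = 0.0774). The difference between the mutants itself was −0.69 ± 0.12 (adjusted p = 1.62e-06).

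All 4 genes of the plastid-encoded RNA polymerase were lower in thp1-5 (median −0.47). In sac3bc, 2 were lower, 1 was higher and 1 was not called (median −0.06). The α subunit gene rpoA had 33.7, 25.7 and 28.6 CPM in thp1-5 and 42.9, 40.5 and 38.8 CPM in sac3bc, against 57.8, 52.4 and 55.5 CPM in Col. The 3 groups formed 3 steps without overlap. Its changes were −0.92 ± 0.06 in thp1-5 (adjusted p = 8.93e-29) and −0.44 ± 0.06 in sac3bc (adjusted p = 5.28e-12), and the step between the mutants was −0.48 ± 0.06 (adjusted p = 2.89e-11). With library totals the sac3bc value was −0.10 and no longer called. The β subunit gene rpoB changed by −0.29 ± 0.08 in thp1-5 (adjusted p = 0.00121) and −0.19 ± 0.08 in sac3bc (adjusted p = 0.0248). With library totals rpoB stood at −0.01 in thp1-5 and 0.14 in sac3bc, and its sac3bc call was lost without Col replicate 2 (−0.17), without Col replicate 3 (−0.18) or without sac3bc replicate 2 (−0.16).

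Most ribosomal protein genes were lower in both mutants. Of 11 small-subunit loci, 10 were lower in thp1-5 (median −0.91) and 8 in sac3bc (median −0.68). Of 9 large-subunit loci, 8 were lower in each, with medians of −0.97 in thp1-5 and −0.96 in sac3bc. No locus of either group was called higher. Both inverted repeat copies of rps7, rpl2 and rpl23 are counted, so these loci outnumber the genes and are not all independent. The most abundant gene of the main ribosomal cluster, rpl16, had 149, 131 and 139.9 CPM in thp1-5 and 139, 139 and 132 CPM in sac3bc, against 288, 271 and 260.0 CPM in Col. All 6 mutant libraries lay far below Col, at −0.97 ± 0.04 in thp1-5 and −1.0004 ± 0.03 in sac3bc (adjusted p = 1.67e-27 and 1.46e-28).

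Beside rpl16 in the same cluster, rpl14 changed by −1.02 ± 0.04 in thp1-5 and −0.98 ± 0.04 in sac3bc (adjusted p = 1.33e-26 and 1.46e-26). The gene rps3 averaged 89.2 ± 11.8 CPM in thp1-5, 97.0 ± 4.03 in sac3bc and 178 ± 8.05 in Col, a change of −1.003 ± 0.09 in thp1-5 and −0.88 ± 0.09 in sac3bc (adjusted p = 5.28e-05 and 8.1e-05).

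The exception in level was rpl32, with 604, 622 and 634 CPM in thp1-5 and 608, 628 and 654 CPM in sac3bc, against 675, 816 and 774 CPM in Col. The groups did not overlap, but the highest mutant library was close to the lowest of Col. The change was −0.28 ± 0.07 in thp1-5 (adjusted p = 0.0123) and −0.26 ± 0.07 in sac3bc (adjusted p = 0.0157). It turned to 0.00 in thp1-5 and 0.07 in sac3bc with library totals, and the sac3bc call was lost without Col replicate 3 (−0.24, adjusted p = 0.052) or sac3bc replicate 1 (−0.24, adjusted p = 0.052). At the low end, rpl23 (ATCG00840, 1 of the inverted repeat copies) had 1.19 ± 0.396 CPM in thp1-5, 0.779 ± 0.377 in sac3bc and 2.51 ± 0.433 in Col, with changes of −1.06 ± 0.29 and −1.66 ± 0.30 (adjusted p = 0.00081 in thp1-5 and 4.98e-07 in sac3bc).

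Other protein genes include ycf1, which encodes a subunit of the protein import apparatus of the inner envelope. Its level averaged 143 ± 18.4 CPM in thp1-5, 148 ± 6.24 in sac3bc and 247 ± 10.6 in Col, a change of −0.79 ± 0.09 in thp1-5 and −0.74 ± 0.09 in sac3bc (adjusted p = 0.000323 and 0.000367). The protease subunit gene clpP had 27.2 ± 1.14 CPM in thp1-5, 32.8 ± 1.097 in sac3bc and 37.2 ± 4.43 in Col. It fell by 0.46 in thp1-5 on the log2 scale (adjusted p = 1.09e-09). In sac3bc the value was −0.19 ± 0.06 (adjusted p = 0.00529), which was −0.09 and not called without Col replicate 2 and turned to 0.15 with library totals. The envelope protein gene cemA changed by −1.08 ± 0.11 in thp1-5 and −0.58 ± 0.10 in sac3bc, with a difference between the mutants of −0.50 ± 0.11 (adjusted p = 0.000112).

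The fatty acid synthesis gene accD was near the detection limit, with 1.404 ± 0.303 CPM in thp1-5, 2.23 ± 0.176 in sac3bc and 2.17 ± 0.767 in Col. Its value of −0.60 ± 0.27 in thp1-5 passed narrowly (adjusted p = 0.0476) and was lost without Col replicate 1 (−0.56), Col replicate 2 (−0.32), thp1-5 replicate 1 (−0.53), thp1-5 replicate 3 (−0.50) or sac3bc replicate 3 (−0.60, adjusted p = 0.0502), with library totals (−0.31) and by DESeq2 (−0.62, adjusted p = 0.0959). In sac3bc it was 0.04 ± 0.24 (adjusted p = 0.895). The cytochrome assembly gene ccsA was not called in either mutant (−0.15 ± 0.25 in thp1-5 and −0.38 ± 0.24 in sac3bc).

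Loci of tRNA length split more evenly. Of 35 such loci 17 were tested, and 8 were lower in thp1-5 and 7 in sac3bc, with none higher. Mature tRNAs are shorter than the reads, so the counts at these loci come from reads that run past them or from trimmed reads, and which of these was not tested. The locus ATCG00390, with the length of several tRNAs of 73 bases, had 1661 ± 76.0 CPM per kb in thp1-5, 1774 ± 12.3 in sac3bc and 2073 ± 146 in Col. Its change was −0.33 ± 0.03 in thp1-5 (adjusted p = 3.54e-15) and −0.23 ± 0.03 in sac3bc (adjusted p = 1.87e-09). With library totals these became −0.04 and 0.11.

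The trnS locus ATCG00290, for a serine tRNA, had 3.72, 1.41 and 3.24 CPM in thp1-5 and 3.26, 2.58 and 2.45 CPM in sac3bc, against 9.26, 7.36 and 7.05 CPM in Col. No mutant library reached Col. It fell by 1.54 in thp1-5 and by 1.51 in sac3bc on the log2 scale (adjusted p = 2.17e-12 and 5.12e-13). Other loci named trnS changed less. ATCG00090 stood at −0.32 in thp1-5 and −0.36 in sac3bc (adjusted p = 0.0087 and 0.0024), with groups that overlapped. ATCG00370 was not called, at −0.61 in thp1-5 and 0.11 in sac3bc (adjusted p = 0.0934 and 0.75). In contrast trnY, for a tyrosine tRNA, had the highest value of all loci in thp1-5 against Col, 0.38 ± 0.20, and was not called (adjusted p = 0.0925). It was called higher with library totals (0.67) and without thp1-5 replicate 1 (0.54). The locus ATCG00110, of 72 bases, changed by −1.35 ± 0.39 in thp1-5 (adjusted p = 0.00155) at only 0.524 ± 0.280 CPM in thp1-5, 1.22 ± 0.206 in sac3bc and 1.38 ± 0.610 in Col, and this call was lost without Col replicate 2 (−0.93, adjusted p = 0.0747).

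Of 4 tested rRNA loci, which are the inverted repeat copies of rrn16S and rrn23S, 2 were lower in thp1-5 and 3 in sac3bc. The larger rRNA of the large subunit, at rrn23S (ATCG01180), had 92.3 ± 8.48 CPM in thp1-5, 75.4 ± 7.18 in sac3bc and 142 ± 27.0 in Col, a change of −0.63 ± 0.16 and −0.92 ± 0.16 (adjusted p = 0.0127 in thp1-5 and 0.00192 in sac3bc). With library totals the thp1-5 value was −0.34 and not called (adjusted p = 0.103). Together, rRNA loci held 3.40% of the chloroplast counts in thp1-5, 2.79% in sac3bc and 2.84% in Col.

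The unmatched loci and those whose length is shared by genes of different classes add 20 tested loci. Of these, 15 were lower in thp1-5, and 7 were lower and 3 higher in sac3bc. Among them ATCG00400, with 86 bases and no gene of that length in RefSeq, had the highest level per length. It had 73.8, 62.6 and 69.5 CPM in thp1-5 and 62.2, 60.7 and 62.0 CPM in sac3bc, against 94.6, 103 and 108 CPM in Col. Col was highest throughout, and the changes were −0.58 ± 0.04 in thp1-5 and −0.73 ± 0.04 in sac3bc (adjusted p = 5.49e-24 and 2.09e-32). It was also the only locus called higher in thp1-5 than in sac3bc, by 0.15 ± 0.05 (adjusted p = 0.00865), a call that was lost without thp1-5 replicate 1 (0.09, adjusted p = 0.19). With library totals it was 0.10 and not called. The locus ATCG00810, of 483 bases like petD and rpl22, fell by 0.98 in thp1-5 and by 0.80 in sac3bc on the log2 scale (adjusted p = 2.23e-34 and 7.33e-30). The unmatched ATCG00905, at 1.04 ± 0.0812 CPM in thp1-5, 0.815 ± 0.185 in sac3bc and 2.20 ± 0.525 in Col, fell by 1.06 in thp1-5 and by 1.40 in sac3bc (adjusted p = 0.00125 and 2.05e-05).

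In thp1-5, the tested loci with values closest to 0 were the tRNA-length loci ATCG00610 at 0.03 ± 0.32 and ATCG00250 at −0.03 ± 0.22, the ribosomal protein gene rps16 at 0.14 ± 0.61 and ccsA. In sac3bc they were petL at 0.04 ± 0.26, accD, ATCG00040 at −0.04 ± 0.11 and psaA. The standard errors of these 8 values ran from 0.11 to 0.61, so the absence of a call does not show equal levels. At ATCG00040, of 1581 bases, the thp1-5 value of −0.61 ± 0.12 was called (adjusted p = 6.08e-06), and the mutants differed by −0.57 ± 0.12 (adjusted p = 3.92e-05).

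Set against each other, the mutants differed at 30 of the 105 loci. Here 29 loci were lower in thp1-5 than in sac3bc (27.6%) and 1 was higher (0.952%), beside 10.9% and 12.1% of all tested genes. The median log2 difference was −0.14, beside 0.00 for all genes, and the groups did not overlap at 36 loci (34.3%, against 34.7% of all genes). The 29 loci had a median length of 531 bases and a median level of 11.3 CPM per kb in Col, while the 75 loci not called had 258 bases and 35.7 CPM per kb. Not divided by length, the median level in Col was 9.36 CPM for the 29 loci and 7.92 CPM for the 75. The lower level per kb of the 29 thus goes with their greater length, not with fewer counts. Among the 29 were 4 NDH genes, 3 RNA polymerase genes, 4 small ribosomal protein genes, 8 loci whose length is shared by genes of different classes and 2 tied loci of tRNA length. No uniquely named photosystem gene was among them, but the 2 loci with the length of atpH and psaC (ATCG00140 and ATCG01060) were. So were ATCG00065 and ATCG00760, with the length of petG, psaI and rpl36. Both psaC and psaI encode photosystem I subunits.

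Of the 7 loci called higher in sac3bc than in Col, 6 were called lower in thp1-5. The ATP synthase α subunit gene atpA had 9.82, 9.55 and 8.80 CPM in thp1-5 and 21.0, 23.6 and 20.1 CPM in sac3bc, against 11.6, 18.5 and 16.0 CPM in Col. Col lay between the mutants without overlap with either. The changes were −0.73 ± 0.11 in thp1-5 (adjusted p = 3.36e-09) and 0.47 ± 0.09 in sac3bc (adjusted p = 1.95e-06), and −1.20 ± 0.10 between the mutants (adjusted p = 6.29e-21). Its RefSeq neighbour atpI, and the catalytic partner atpB encoded elsewhere, fell in both, as given above.

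The NDH genes ndhA and ndhI, for a membrane subunit and an iron-sulphur subunit, had the same order. The CPM of ndhA was 4.39, 4.35 and 3.66 in thp1-5 and 9.96, 13.1 and 11.6 in sac3bc, against 6.35, 9.20 and 7.20 in Col. All 3 groups were apart. The log2 fold changes were −0.88 ± 0.15 in thp1-5 (adjusted p = 1.35e-07), 0.60 ± 0.12 in sac3bc (adjusted p = 5.47e-06) and −1.48 ± 0.13 between the mutants (adjusted p = 4.43e-19). The CPM of ndhI was 1.19, 1.36 and 1.55 in thp1-5 and 3.95, 4.37 and 5.15 in sac3bc, against 2.21, 2.94 and 2.10 in Col. Again no 2 groups overlapped. It had the largest difference between the mutants of all tested chloroplast loci, −1.71 ± 0.21 (adjusted p = 2.37e-11), made up of −0.83 ± 0.26 in thp1-5 (adjusted p = 0.0034) and 0.89 ± 0.20 in sac3bc (adjusted p = 3.61e-05). With library totals the thp1-5 value of ndhI was −0.54 and not called (adjusted p = 0.0539).

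The gene rpoC2, for the β″ subunit of the RNA polymerase, had 5.50, 5.71 and 5.56 CPM in thp1-5 and 10.3, 10.4 and 10.8 CPM in sac3bc, against 5.65, 8.98 and 7.28 CPM in Col. The lowest Col library fell within the range of thp1-5, while sac3bc was above all others. The sac3bc value was 0.51 ± 0.12 (adjusted p = 0.000121) and the difference between the mutants −0.91 ± 0.12 (adjusted p = 7.58e-10). The thp1-5 value of −0.40 ± 0.14 (adjusted p = 0.0102) was −0.22 and not called without Col replicate 2, and −0.11 and not called with library totals.

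The locus ATCG00520 (555 bases, the length of atpF and ycf4) was at −0.69 ± 0.27 in thp1-5 (adjusted p = 0.0215), at 0.87 ± 0.21 in sac3bc (adjusted p = 0.000162) and at −1.56 ± 0.23 between the mutants (adjusted p = 5.84e-09). Its thp1-5 call was lost without Col replicate 2 (−0.34), thp1-5 replicate 1 (−0.56) or thp1-5 replicate 3 (−0.59), and with library totals (−0.40, adjusted p = 0.178). The unmatched locus ATCG00360 had −0.53 ± 0.19 in thp1-5 (adjusted p = 0.0101) and 0.47 ± 0.16 in sac3bc (adjusted p = 0.00669). The first of these was lost without Col replicate 2 (−0.46) and with library totals (−0.24, adjusted p = 0.243), and the second without Col replicate 1 (0.36) or sac3bc replicate 2 (0.33). The difference between the mutants was −0.996 ± 0.16 (adjusted p = 3.14e-07).

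ATCG01070 (306 bases, the length of ndhE and rps18) was the one locus higher in sac3bc that was not called in thp1-5. Its sac3bc value of 0.71 ± 0.29 (adjusted p = 0.0239) was 0.47 without Col replicate 1, 0.61 without Col replicate 3 and 0.27 without sac3bc replicate 2, not called in these cases, and 1.15 without Col replicate 2. Its difference between the mutants, −1.25 ± 0.30 (adjusted p = 0.000561), was −0.81 and not called without sac3bc replicate 2.

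**Figure D4:**
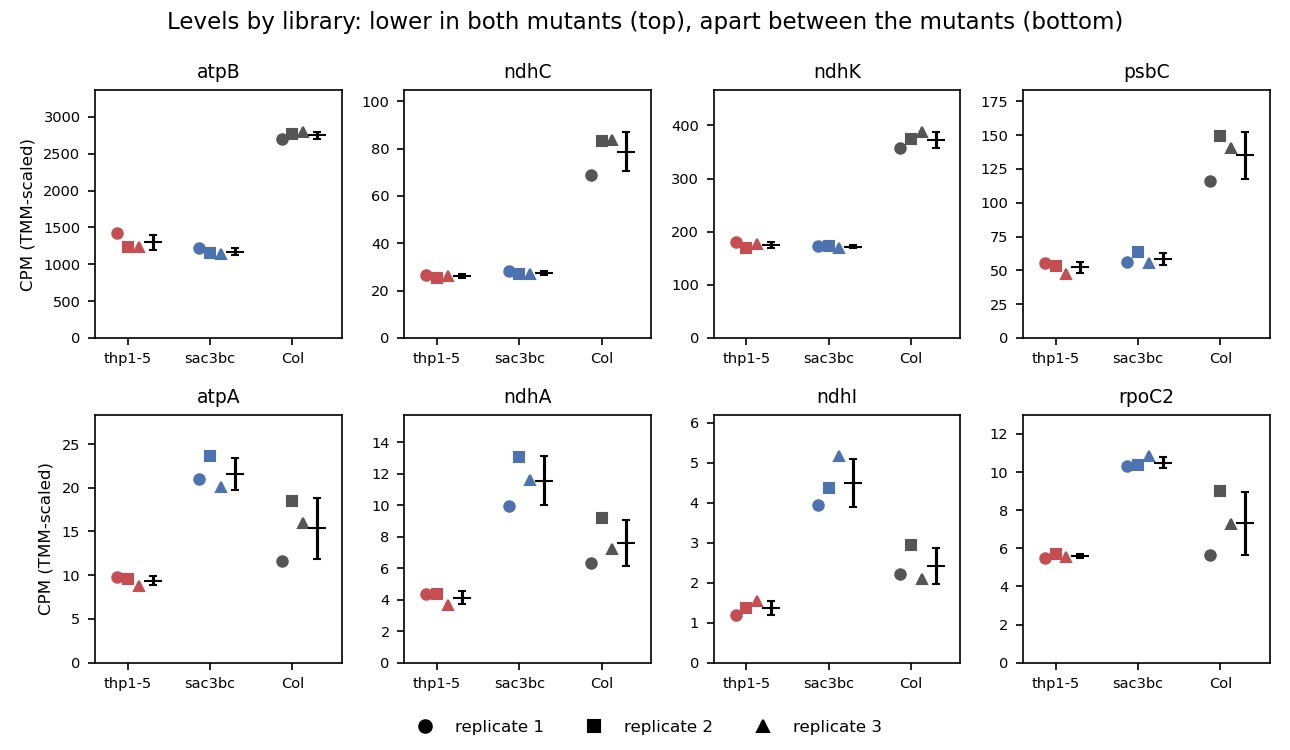
TMM-scaled CPM in each library of thp1-5, sac3bc and Col, with mean ± SD to the right of each group (3 libraries). Top, atpB, ndhC, ndhK and psbC are lower in both mutants. Bottom, atpA, ndhA, ndhI and rpoC2 have sac3bc above Col, with thp1-5 below Col except at rpoC2, where the ranges of thp1-5 and Col overlap.

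Neighbouring genes moved together in some runs and not in others. Runs of neighbouring protein genes were taken from RefSeq, as genes on 1 strand with gaps of at most 800 bases, and their named and tested members were compared. In the run from rpoA to rps19, the 5 genes compared here (rpoA, rpl14, rpl16, rps3 and rps19) were lower in both mutants, with values of −1.02 to −0.92 in thp1-5 and −1.0004 to −0.44 in sac3bc. In the run of ndhJ, ndhK and ndhC all 3 were lower in both. In the run of atpA, atpI, rps2, rpoC2, rpoC1 and rpoB all 6 were lower in thp1-5, while in sac3bc 2 were lower and 2 higher. In the run of ndhG, ndhI, ndhA, ndhH, rps15 and ycf1 all 6 were lower in thp1-5, 2 were lower and 2 higher in sac3bc, and 5 were lower in thp1-5 than in sac3bc. The other runs with at least 3 such genes were less even. In the run of rps14, psaB, psaA and rps4, 2 of 4 were lower in thp1-5 and 1 in sac3bc. In that of rbcL, accD, cemA and petA, 3 of 4 were lower in thp1-5 and 1 in sac3bc. In that of psbJ, psbL, psbF and psbE, 1 of 4 was lower in each mutant.

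In the runs from atpA to rpoB and from ndhG to ycf1 the values changed from gene to gene. The change of ndhG in thp1-5 was −0.98 ± 0.23 (adjusted p = 9.74e-05), with 0.18 ± 0.19 in sac3bc (adjusted p = 0.412, but 0.51 and called higher with library totals), and the mutants differed by −1.16 ± 0.21 (adjusted p = 3.63e-06). For ndhH the thp1-5 value was −0.82 ± 0.13 (adjusted p = 6.13e-09) and the sac3bc value −0.09 ± 0.11 (adjusted p = 0.466), which was 0.24 with library totals. The RNA polymerase gene rpoC1 had −0.55 ± 0.13 in thp1-5 (adjusted p = 0.000107) and 0.08 ± 0.11 in sac3bc (adjusted p = 0.564). With library totals the thp1-5 value of rpoC1 was −0.26 and not called (adjusted p = 0.0644). The mutants differed at ndhH by −0.73 ± 0.12 (adjusted p = 2.61e-07) and at rpoC1 by −0.62 ± 0.12 (adjusted p = 1.1e-05). A locus with the length of atpF and ycf4, ATCG00130, likewise had −0.82 ± 0.20 in thp1-5 (adjusted p = 0.0016) and 0.25 ± 0.17 in sac3bc (adjusted p = 0.201). Genes of a run can share transcripts and reads near their ends, so their values are not independent.

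Some of the best known chloroplast genes varied widely within groups, and calls at several of them depended on the setting. The Rubisco large subunit gene rbcL had 54.0, 92.2 and 37.4 CPM in thp1-5 and 49.97, 89.6 and 71.3 CPM in sac3bc, against 46.4, 133 and 95.5 CPM in Col. The 3 groups overlapped widely, and the second library was the highest in each. Its values of −0.57 ± 0.49 in thp1-5 and −0.40 ± 0.47 in sac3bc were not called (adjusted p = 0.355 and 0.486). ATCG00020, the other locus with the length of psbA and psbD, had 50.5, 117 and 25.0 CPM in thp1-5 and 28.7, 84.5 and 61.0 CPM in sac3bc, against 76.9, 365 and 205 CPM in Col. Here too the groups overlapped, and the low values of −1.71 ± 0.75 in thp1-5 and −1.90 ± 0.74 in sac3bc were not called (adjusted p = 0.0883 and 0.0592). Both were called lower by DESeq2 (adjusted p = 0.0361 in thp1-5 and 0.0201 in sac3bc) and without Col replicate 1, at −2.09 in thp1-5 and −2.28 in sac3bc (adjusted p = 0.0386 and 0.0258).

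The photosystem I core genes behaved alike. The level of psaA was 21.9, 29.9 and 17.0 CPM in thp1-5 and 33.5, 40.5 and 38.5 CPM in sac3bc, against 25.1, 50.8 and 40.0 CPM in Col. Col spanned both mutants apart from the lower thp1-5 libraries. The changes were −0.74 ± 0.31 in thp1-5 (adjusted p = 0.0761) and −0.06 ± 0.27 in sac3bc (adjusted p = 0.865). For psaB they were −0.79 ± 0.29 (adjusted p = 0.0546) in thp1-5 and −0.08 ± 0.26 (adjusted p = 0.814) in sac3bc. In thp1-5 both genes were called lower by DESeq2, without Col replicate 1 (psaA −0.96, psaB −1.01) and without thp1-5 replicate 2 (−1.01 for each). Their RefSeq neighbour rps14 did fall, by 1.099 in thp1-5 and by 1.04 in sac3bc on the log2 scale (adjusted p = 1.22e-12 and 1.13e-12).

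The rRNA of the small ribosomal subunit showed the same spread. At rrn16S (ATCG01210) the level was 17.3, 27.3 and 11.3 CPM in thp1-5 and 10.1, 20.7 and 15.8 CPM in sac3bc, against 14.8, 45.7 and 36.2 CPM in Col. No change was called there (adjusted p = 0.223 in thp1-5 and 0.103 in sac3bc), but without Col replicate 1 the sac3bc value was −1.39 and called (adjusted p = 0.0302). Its inverted repeat copy ATCG00920 was called lower in sac3bc at −1.33 ± 0.48 (adjusted p = 0.0457), but leaving out any library other than Col replicate 1 ended that call, with values of −1.55 to −0.97, as did library totals (−0.99). Without Col replicate 1 this copy was also called lower in thp1-5 (−1.12, adjusted p = 0.0381). The photosystem II gene psbL, with 3.50, 4.29 and 2.11 CPM in thp1-5, 2.86, 4.58 and 2.86 in sac3bc, and 3.79, 9.42 and 6.90 in Col, was not called (adjusted p = 0.0608 and 0.0552), but was called lower in both mutants by DESeq2, without the filter, and without Col replicate 1, Col replicate 2, thp1-5 replicate 2 or sac3bc replicate 2.

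Among the 101 tested loci with at least 100 counts, 16 differed more than 2-fold between the thp1-5 libraries, 7 between the sac3bc libraries and 19 between the Col libraries. Of the 19, replicate 2 was the highest library at 17 in thp1-5, 15 in sac3bc and 16 in Col, and at 11 in all 3 groups. Over all 101 loci, it was the highest in all 3 groups at 18. The labels give no batch for the replicate numbers, and whether a shared step lies behind this was not tested. Of these 19 loci, 8 were called lower in thp1-5 and 2 in sac3bc. Without replicate 2 of each group, a setting chosen after seeing the data, 65 loci were lower and 0 higher in thp1-5, and 49 lower and 6 higher in sac3bc.

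**Figure D5:**
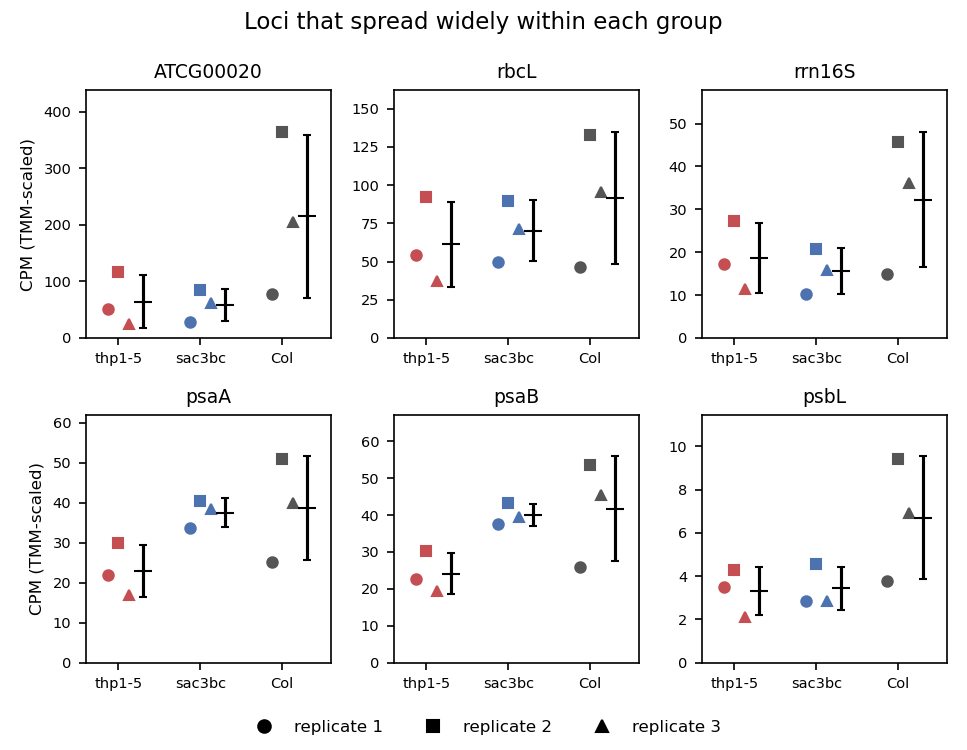
TMM-scaled CPM in each library of thp1-5, sac3bc and Col, with mean ± SD to the right of each group (3 libraries), for ATCG00020, rbcL, rrn16S (ATCG01210), psaA, psaB and psbL. Replicate 2 (square) is the highest library of each group at these loci.

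Nuclear genes for the same complexes were also lower. Of 21 listed nuclear subunits of the chloroplast complexes, 17 were lower and 2 higher in thp1-5 (median −0.53), and 19 lower and 0 higher in sac3bc (median −0.68). With library totals, 14 were lower and 6 higher in thp1-5 (median −0.24), and 16 lower and 3 higher in sac3bc (median −0.34). Between the mutants, 20 of the 21 were higher in thp1-5 than in sac3bc and 0 lower. Of the 105 tested chloroplast loci, 29 were lower in thp1-5 than in sac3bc, 1 was higher and 75 were not called. Among those not called, the abundant atpB and atpE stood at 0.14 each. PSAF, a photosystem I subunit, had 2057 to 2147 CPM in thp1-5 and 1796 to 1826 in sac3bc, against 3728 to 3820 in Col, with −0.85 ± 0.02 and −1.05 ± 0.02 (adjusted p = 5.75e-82 in thp1-5 and 6.22e-94 in sac3bc). PDE334, an ATP synthase subunit, stood at −0.85 ± 0.02 in thp1-5 and −0.998 ± 0.02 in sac3bc. PSBO1, a protein of the oxygen-evolving complex of photosystem II, stood at −0.65 ± 0.02 in thp1-5 and −0.82 ± 0.02 in sac3bc. The 2 genes that were higher in thp1-5 were NdhM at 0.23 ± 0.04 and the ATP synthase gene ATPD at 0.13 ± 0.02 (adjusted p = 4.91e-08 and 4.1e-08).

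Nuclear genes for plastid transcription (2 phage-type polymerases and 6 sigma factors) changed less. Of these 8, 5 were lower and 2 higher in thp1-5 (median −0.13), and 6 lower and 1 higher in sac3bc (median −0.30), medians that turned to 0.16 and 0.04 with library totals. SIGE, a light-responsive sigma factor, had 63.4 to 66.1 CPM in thp1-5 and 54.1 to 57.8 in sac3bc, against 92.6 to 101 in Col, or −0.58 ± 0.04 and −0.79 ± 0.04 (adjusted p = 5.46e-25 and 5.32e-37). Of 6 genes for plastid RNA turnover, 3 were lower and 1 higher in thp1-5 and 4 lower and 0 higher in sac3bc. The medians of −0.17 in thp1-5 and −0.31 in sac3bc turned to 0.12 and 0.02 with library totals. CSP41A, an RNA-binding protein that stabilises chloroplast transcripts, had 295 to 302 CPM in thp1-5 and 227 to 233 in sac3bc, against 615 to 636 in Col, which is −1.06 ± 0.02 and −1.44 ± 0.03 (adjusted p = 3.14e-78 and 1.42e-94). The polynucleotide phosphorylase gene RIF10, whose enzyme acts at chloroplast RNA ends, was at −0.08 ± 0.04 in thp1-5 (adjusted p = 0.109) and −0.27 ± 0.04 in sac3bc (adjusted p = 1.49e-08).

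Markers of green and of root tissue moved with the genotypes as well. All 8 green markers, which encode light-harvesting proteins, were lower in both mutants, with medians of −0.64 in thp1-5 and −0.83 in sac3bc. With library totals 7 were lower and 1 higher in thp1-5 (median −0.36), and 8 lower in sac3bc (median −0.49). Their summed level was 36415 to 37597 CPM in thp1-5 and 31389 to 32646 in sac3bc, against 60097 to 61406 in Col. Of 10 root markers 9 were tested, and 7 were higher and 1 lower in thp1-5, and 8 higher and 1 lower in sac3bc. The 1 that fell, PYK10, dominated the summed level, which was 1832 to 1877 CPM in thp1-5 and 1838 to 1887 in sac3bc, against 3734 to 3808 in Col. The root hair gene LRX1 had 14.7 to 19.0 CPM in thp1-5 and 23.0 to 26.8 in sac3bc, against 8.03 to 8.29 in Col. No marker of either list was at 0 in all libraries, and the part of the make-up of the seedlings in the chloroplast result was not tested.

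Loci of the mitochondrial genome, the other organelle RNA in these libraries, took 0.0464 ± 0.00405% of the counts in thp1-5 and 0.0521 ± 0.00420% in sac3bc, against 0.0416 ± 0.00494% in Col (SD, n = 3). Their share of counts was thus not lower in the mutants, unlike that of the chloroplast loci. Their summed TMM-scaled CPM was 440 ± 38.7 in thp1-5, 477 ± 37.4 in sac3bc and 481 ± 55.2 in Col. Most of that sum came from ATMG00020 and ATMG01390. They had 197 and 175 CPM in thp1-5, 206 and 192 in sac3bc and 233 and 172 in Col. Neither was called in either mutant, so share and sum say little about the other loci. Of 162 mitochondrial loci 20 were tested, of which 7 were lower and 1 higher in thp1-5 (median −0.46), and 8 lower and 4 higher in sac3bc (median −0.31). Of all tested genes, 31.8% were lower and 32.1% higher in thp1-5, and 33.0% and 35.0% in sac3bc. With library totals, 4 were lower and 4 higher in thp1-5 (median −0.17), and 5 lower and 6 higher in sac3bc (median 0.03).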

How the data were processed

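Polyadenylated RNA of 14-day-old seedlings was sequenced as single-end reads of 150 nt, per the labels. The deposited values are read counts per locus. STAR and DESeq2 are named, without versions or roles, per the submitters' processing notes, and no build, annotation, counter or strand setting is given in the sources used here. Counts of all 9 libraries (12.8 to 17.9 M each) were fitted in 1 model of 3 groups with edgeR 4.0.16 in R 4.3.3 (TMM, filterByExpr at a minimum count of 10, robust quasi-likelihood F-test, two-sided, Benjamini-Hochberg adjustment over 22400 genes), after a check on simulated data. The standard error is the absolute log2 fold change over the square root of F and is approximate. Alternatives were DESeq2 1.42.0, other scalings, filters and fits, and leaving out each library.

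The members and gene lists were chosen with earlier results of these data known. By rule, the text names the 8 loci with the highest level per length, the extremes among called loci with at least 100 counts and groups that do not overlap, the 4 closest to 0 per mutant, the highest of each class and up to 4 called genes per nuclear list. Named after their values were seen were atpA, atpI, rpoC1, trnY, rps14, psaB, ndhJ, cemA, petA, rpl14, rrn16S, ndhF, ndhG, ndhH, ycf1, psbL, ATCG00020, ATCG00130, ATCG00360, NdhM and ATPD. A few items that the rule would name are not reported here.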

Additional observations from a re-analysis of the deposited data

How the results depend on the processing

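For thp1-5 against Col, library totals in place of TMM gave 48 loci lower and 1 higher with a median log2 fold change of −0.49 (all tested genes 3614 lower and 12538 higher, against 7117 and 7180 with TMM). For sac3bc against Col they gave 35 lower and 20 higher with a median of −0.090 (all tested genes 3636 and 13625, against 7403 and 7829). Less the median of all genes, the chloroplast medians were −0.79 in thp1-5 and −0.46 in sac3bc under both scalings. A change of scaling shifts the values of all genes alike, so this agreement was fixed in advance and is no check. Library totals turned round 8 values of named loci: rpl32 in thp1-5 (0.0026), and in sac3bc ATCG00040 (0.29), atpI (0.053), rpoB (0.14), ATCG00390 (0.11), clpP (0.15), rpl32 (0.074) and ndhH (0.24). Of these, the sac3bc values of ATCG00040 and ndhH were not called with TMM and were called with library totals. A value called with TMM counts here as turned round on a change of sign alone. With library totals, rpl32 in both mutants and atpI and rpoB in sac3bc were not called.

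Scaling each library by its chloroplast total measures a locus within the chloroplast set by construction. It gave 11 lower and 26 higher in thp1-5 (median 0.091) and 10 lower and 55 higher in sac3bc (median 0.44), and 2 higher between the mutants. Over all tested loci, 18 of the 78 calls with TMM in thp1-5 and 17 of the 62 in sac3bc were called in the opposite direction. By the same rule as above, this scaling turned round 43 values of named loci. In thp1-5 these were ATCG00040 0.26, atpA 0.14, ATCG00130 0.053, atpI 0.42, rpoC2 0.47, rpoC1 0.31, rpoB 0.57, psbM 0.079, ATCG00250 0.83, ATCG00360 0.34, ATCG00390 0.54, ATCG00400 0.28, atpE 0.091, accD 0.26, ATCG00520 0.17, petL 0.62, psaJ 0.49, clpP 0.41, rpl32 0.58, ccsA 0.71, ndhI 0.037, ndhH 0.042, ycf1 0.066 and rrn23S 0.24. In sac3bc they were ATCG00040 0.83, ATCG00110 0.66, atpI 0.59, rpoB 0.68, psbM 0.079, ATCG00250 0.59, psaB 0.82, psaA 0.83, ATCG00390 0.64, ATCG00400 0.14, cemA 0.29, petA 0.66, psaJ 0.51, clpP 0.69, rpoA 0.43, ATCG00810 0.072, rpl32 0.61, ndhH 0.78 and ycf1 0.13. Not called under this scaling were, in thp1-5, ATCG00040, atpA, ATCG00130, psbM, ATCG00360, atpE, accD, ATCG00520, ndhI, ndhH and ycf1. In sac3bc the values of psbM, ATCG00400, ATCG00810 and ycf1 were not called.

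The number of loci higher in thp1-5 than in sac3bc was 0 with library totals, 2 with DESeq2, 2 without a filter and 3 with only the 2 groups compared in the fit. Leaving out each library in turn gave medians of −0.84 to −0.62 in thp1-5 against Col, −0.53 to −0.34 in sac3bc against Col and −0.21 to −0.10 between the mutants, with 64 to 85, 47 to 63 and 22 to 34 loci lower and 0 to 1, 5 to 9 and 1 to 3 higher. Without atpB, chloroplast loci held 0.432% of counts in thp1-5, 0.455% in sac3bc and 0.607% in Col.

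Over 3219 recomputed values of the 57 named loci, 2980 kept their direction and side of the threshold or stayed uncalled. Another 107 were no longer called, 81 became called and 51 turned round, 0 of these when libraries were left out. Of 1235 values that were uncalled and stayed so, 86 had the other sign and are not counted as turned round. Same-numbered libraries did not deviate together over all genes (r = −0.01 to 0.04), which does not settle whether they do so at the chloroplast loci. With the replicate block, 85 loci were lower and 0 higher in thp1-5, 62 lower and 8 higher in sac3bc, and 32 lower and 1 higher between the mutants. The block added calls at ATCG00020 (−1.73 in thp1-5 and −1.85 in sac3bc, adjusted p = 0.0232 and 0.0162), psbL in both mutants, psaA and psaB in thp1-5, rrn16S ATCG01210 and (higher) ATCG00130 in sac3bc, and rps3 between the mutants. Over the chloroplast loci alone r ran from −0.01 to 0.62 between same-numbered libraries and from −0.64 to 0.42 between the others. A shared origin of same-numbered libraries was not tested. At 48 tested loci the 9 libraries held at least 100 but under 1000 counts in all, which limits what can be called there.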
